A study of Mus musculus with 12 samples.

Results

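The 34 genes described here carry glucose into the cell, break it down by glycolysis or the pentose phosphate pathway, or belong to the hypoxia response. They were taken by gene symbol from the 41388 genes counted in RNA sequencing of mouse peritoneal macrophages, and all 34 were found and passed the filter on low counts. The macrophages were drawn into the abdominal cavity with thioglycolate, harvested on day 4 and, a day after plating, treated for 8 h. Control cells came from LysM-Cre mice, which carry a Cre recombinase driven in myeloid cells, and the second genotype is labelled LysM-PPARg, a PPARγ knockout in cells that carry the same Cre. Each genotype received either vehicle (BSA-PBS) or a mix of 250 uM palmitate (a saturated fatty acid) and 100 ng/ml LPS (a bacterial endotoxin). The 2 agents were given together only, so their effects cannot be told apart. The 4 groups had 3 libraries each. Nothing in the labels says whether these came from separate mice, so the p-values measure the spread between libraries.

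Libraries held 17960457 to 22696385 counts, and the 34 genes took 0.898% to 0.985% of them. The macrophage markers Cd68, Csf1r and Adgre1 stood at 3941, 126.9 and 95.1 RPKM in control vehicle libraries. Itgam, Lyz2, Mertk and Fcgr1, from the same list, were lower, at 24.3, 16.7, 15.3 and 12.4. RPKM is the count scaled to the size of its library and to the gene's exon length in kilobases, here on TMM library sizes, and it is the scale of every level below. Pparg itself (ENSMUSG00000000440, chromosome 6, 115361221 to 115490401, plus strand, GRCm38) went against its label, at 31.4, 31.03 and 30.7 RPKM in control vehicle libraries and 56.1, 45.9 and 48.3 in vehicle libraries labelled knockout. With palmitate plus LPS it stood at 1.83, 1.44 and 2.09 and 1.81, 2.54 and 2.38. Gene-level counts include exons outside a deleted stretch, so they do not check the deletion, and the groups are called controls and libraries labelled knockout throughout. Replicate 1 of the vehicle libraries labelled knockout stood apart from its group, at 30.6 on the second principal component (3.99% of the variance) against -7.99 and -10.4 for replicates 2 and 3. Of the 34 genes, 16 were higher and 6 lower in that library by more than 0.2 on the log2 scale than in the mean of the other 2, and results that turn on it are given without it. The same count was not made over all genes, so whether this shift is particular to the 34 is not known.

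Glycolysis splits glucose to pyruvate in the cytosol and yields ATP without oxygen, and the pentose phosphate pathway diverts its first intermediate to NADPH and ribose. Macrophages stimulated with LPS are known to take up more glucose and to release lactate. HIF1α, the oxygen-regulated transcription factor encoded by Hif1a, is hydroxylated by the EGLN prolyl hydroxylases and then degraded when oxygen is present. When it persists, it binds the core sequence ACGTG or GCGTG near genes of glucose transport, glycolysis and oxygen supply, and LPS is known to raise its level in macrophages even with oxygen present.

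The HIF core was searched as ACGTG or GCGTG on both strands in RefSeq promoter windows (GRCm38.p6, 300 bases, from 250 before to 50 after a start site). All 34 genes had a window, and 32 of them (94.1%) held at least 1 match, against 46.7% of the 27025 genes with a window. Counted by window, because some genes have several starts, 81.6% of 49 windows of these genes held a match and 43.8% of all 32851 windows did. ACGTG alone was present for 22 genes (64.7%), against 21.8% of all genes. Tpi1 and Gpi1 had no match in these windows. A match is a run of letters and does not show binding. The 34 include genes picked as HIF1 targets, and the background holds every gene with a window, expressed or not. These shares are therefore no test of enrichment. The 250 bases before the start are printed for P4ha1, Hk3 and Adm, whose responses to stimulation differed between genotypes in every setting tried, and for Slc2a6 and Ankrd37, both with 4 matches, of which the first rose and the second fell with stimulation. Capitals mark the matches, read on either strand (CACGT and CACGC are the same motifs on the opposite strand), and overlapping matches run together. The stretches lie at chr10:59323046-59323295, plus strand for P4ha1, chr13:55021386-55021635, minus strand for Hk3, chr7:110627407-110627656, plus strand for Adm, chr2:27027999-27028248, minus strand for Slc2a6 and chr8:45999851-46000100, minus strand for Ankrd37.
P4ha1: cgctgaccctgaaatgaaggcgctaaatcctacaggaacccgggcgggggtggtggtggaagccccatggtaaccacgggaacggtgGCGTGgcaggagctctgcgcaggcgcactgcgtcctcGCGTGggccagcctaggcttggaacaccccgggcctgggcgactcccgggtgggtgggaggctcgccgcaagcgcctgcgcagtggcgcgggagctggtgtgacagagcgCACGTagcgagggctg
Hk3: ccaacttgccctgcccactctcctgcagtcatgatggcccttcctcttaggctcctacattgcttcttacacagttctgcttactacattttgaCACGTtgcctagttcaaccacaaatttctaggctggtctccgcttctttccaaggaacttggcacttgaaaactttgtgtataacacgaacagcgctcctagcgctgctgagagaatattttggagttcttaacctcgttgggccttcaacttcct
Adm: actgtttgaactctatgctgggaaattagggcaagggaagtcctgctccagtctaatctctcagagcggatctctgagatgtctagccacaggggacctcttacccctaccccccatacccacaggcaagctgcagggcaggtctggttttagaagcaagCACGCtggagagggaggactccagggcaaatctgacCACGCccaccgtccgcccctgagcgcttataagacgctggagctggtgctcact
Slc2a6: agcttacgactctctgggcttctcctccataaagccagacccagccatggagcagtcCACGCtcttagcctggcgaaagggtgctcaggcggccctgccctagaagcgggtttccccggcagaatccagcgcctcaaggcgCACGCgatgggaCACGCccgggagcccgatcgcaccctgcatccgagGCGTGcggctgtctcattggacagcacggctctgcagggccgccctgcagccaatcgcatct
Ankrd37: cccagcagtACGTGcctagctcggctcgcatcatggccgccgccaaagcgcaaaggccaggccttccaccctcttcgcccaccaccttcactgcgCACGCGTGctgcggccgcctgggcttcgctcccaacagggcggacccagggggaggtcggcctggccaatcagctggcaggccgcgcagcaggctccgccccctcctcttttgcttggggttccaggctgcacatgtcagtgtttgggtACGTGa

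P4ha1, which rose in both genotypes, has 3 matches in its stretch, Adm, which also rose in both, has 2 of the GCGTG kind, and Hk3 has 1 of the ACGTG kind. Slc2a6 rose and Ankrd37 fell, each with 4 matches.

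Several glycolytic enzymes have many processed copies in the mouse genome, and this limits what their counts mean. Every run of 50 bases in the longest protein-coding GENCODE M21 transcript of each gene was looked up, on either strand, in the transcripts of all other genes. For Gapdh 82.5% of the runs also occurred in another gene, for Eno1 72.2%, for Pgk1 68.0%, for Bnip3 62.4%, for Pgam1 41.5% and for Pkm 34.4%. Gpi1 shared 25.3%, Pfkp 17.1%, Ldha 16.6% and Aldoa 13.5%. Because both strands were searched, shared runs need not lie in processed copies. Pfkp shared its runs with 1 gene only, and Gpi1 overlaps a gene on the opposite strand, as given below. Gapdh, among the most abundant transcripts of most cells, was counted at only 4.005 ± 0.370 RPKM in control vehicle libraries, while the neighbouring enzymes Aldoa and Pkm stood at 775 ± 77.5 and 513 ± 45.8. In the control vehicle libraries Gapdh had 740 counts in all, and 65 annotated copies that share at least 10% of its runs had 1233 together. With palmitate plus LPS in the libraries labelled knockout the sums were 532 and 700. Whether reads with several matches were dropped or shared out is not given in the sources used here, and levels and changes of Gapdh, Eno1, Pgk1, Bnip3, Pgam1 and Pkm are therefore uncertain. Exons of Ankrd37 (28.9% of its length), Gpi1 (16.5%) and G6pdx (13.6%) overlap those of a gene on the opposite strand. The strand setting of the counting is not given either, so reads of such partners could not be separated.

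**Figure D1:**
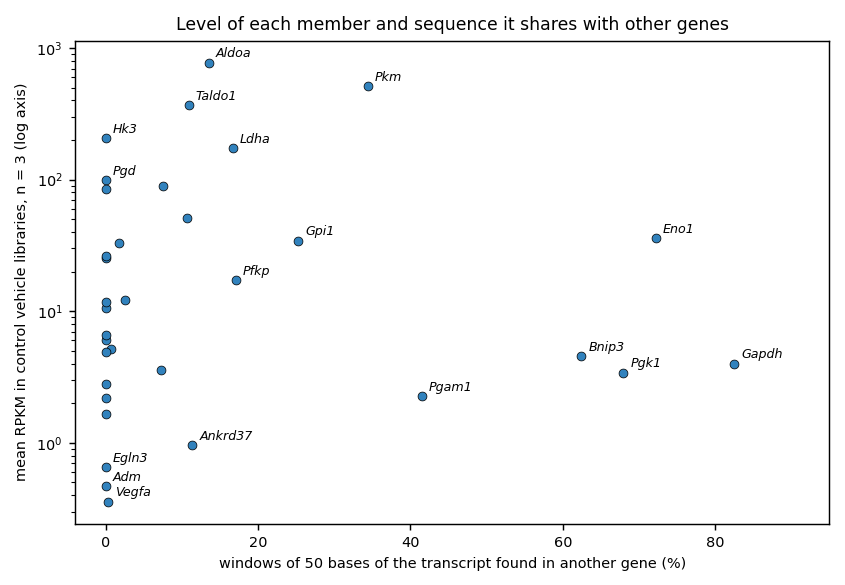
Mean RPKM of each of the 34 genes in the 3 control vehicle libraries (log axis) against the share of 50-base runs of its longest protein-coding transcript that occur in another gene. Gapdh, at 82.5% shared, stands at 4.005 ± 0.370 RPKM (SD), far below Aldoa and Pkm.

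Stimulation was followed in both genotypes by higher levels of both glucose transporter genes, Hk2, Hk3, Pfkp, Hif1a, P4ha1, Pgd and Adm. Levels of Tpi1, Pkm, Pfkl, Pdk1 and the prolyl hydroxylase genes Egln1 and Egln3 were lower. The Egln3 call in libraries labelled knockout was lost in most other settings tried. The 34 genes thus did not move as a block. In controls 10 rose and 16 fell past the threshold (edgeR quasi-likelihood test, Benjamini-Hochberg adjusted p under 0.05 over 12914 genes). Of all genes 32.0% rose and 34.7% fell, so the share that rose was near the background and the share that fell somewhat above it. Libraries labelled knockout had 11 higher and 19 lower, against 33.7% and 35.6% of all genes. The median log2 change was -0.21 in controls and -0.42 in libraries labelled knockout, beside -0.05 and -0.06 over all genes. Scaled to total counts in place of TMM, the median of all genes moved to -0.38 and -0.42. Each change is thus relative to the bulk of genes, and under that scaling the counts of rises and falls were 9 and 20 in controls, beside 20.5% and 49.7% of all genes, and 10 and 23 in libraries labelled knockout, beside 20.7% and 50.9%. No called change turned direction with total-count scaling or DESeq2 size factors. The uncalled changes of Gapdh, Hk1, Pfkfb3 and Pgam1 in controls and of Pgk1 in libraries labelled knockout did, as did uncalled genotype differences of Ankrd37, G6pdx, Hk2 and Vegfa in vehicle and of Slc2a1 after stimulation, and the interaction of Pfkfb4. In bulk RNA a gene's lower level cannot be told apart from fewer cells that express it.

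**Figure D2:**
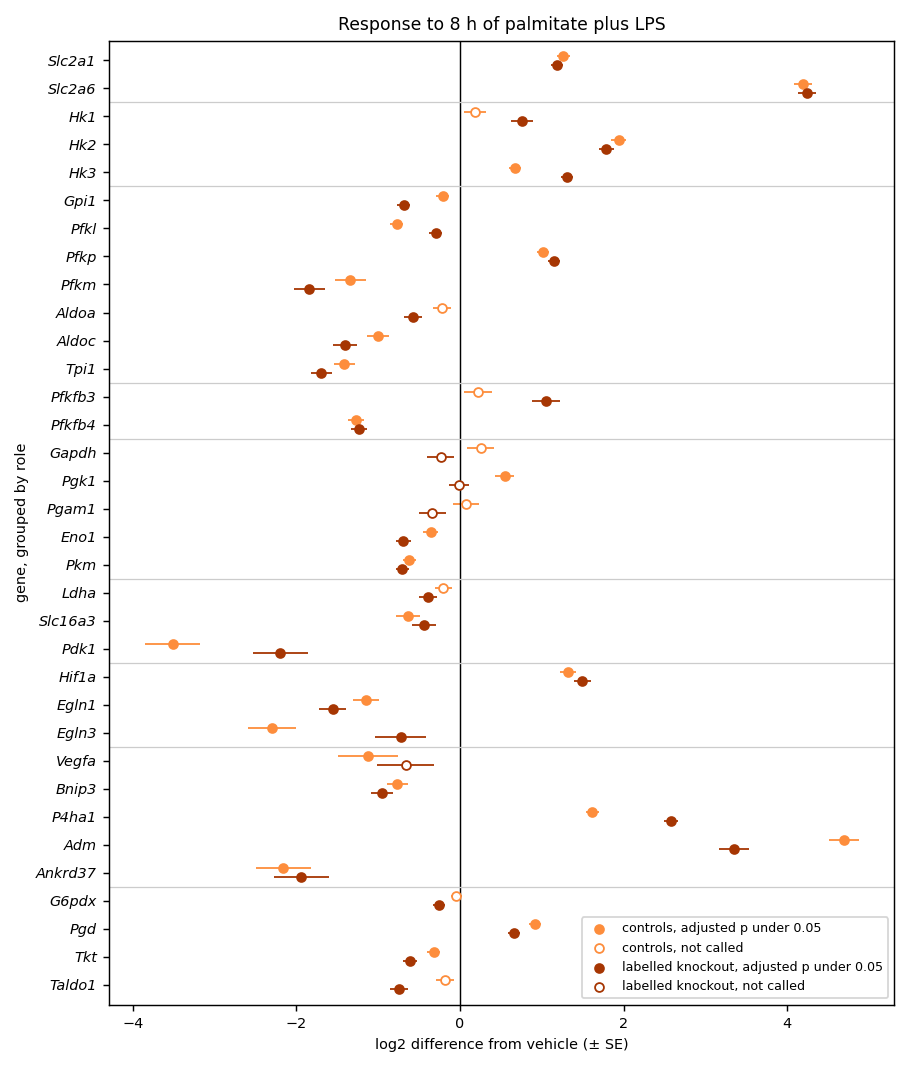
Log2 difference between palmitate plus LPS and vehicle (± SE, n = 3 libraries per group) for the 34 genes in role order, in controls (light) and libraries labelled knockout (dark). Filled points passed an edgeR adjusted p of 0.05. Adm and Slc2a6 lie farthest to the right and Pdk1, Egln3 and Ankrd37 farthest to the left in controls.

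Between genotypes the vehicle libraries differed little. Slc2a6 and Pfkp were higher and Pfkl and Egln3 lower in the libraries labelled knockout, 2 of 34 each way, beside 2.11% and 1.69% of all genes. After palmitate plus LPS 6 were higher, namely Hk1, Hk3, Pfkp, Pfkfb3, Slc2a6 and P4ha1, and 5 were lower, namely Gpi1, Aldoc, Ldha, Adm and Taldo1. Of all genes 10.0% were higher and 6.10% lower, both smaller shares than among the 34. The 34 were chosen with earlier results of these data known, so neither this nor the other comparisons with all genes test for an excess. With total-count scaling the split was 5 higher and 10 lower, beside 6.51% and 12.2% of all genes, and in vehicle 1 and 4, beside 1.77% and 1.67%. DESeq2 size factors gave 2 and 1 in vehicle, beside 2.20% and 1.58%. The median log2 difference was 0.08 in vehicle and -0.11 after stimulation, beside 0.01 and -0.01 over all genes. The interaction, the response in libraries labelled knockout minus that in controls, was higher for Hk3, Pfkl, Pfkfb3, Egln3 and P4ha1 and lower for Gpi1, Adm and Taldo1. These 5 and 3 stand beside 4.70% and 3.35% of all genes, and the total-count scaling gave 4 and 8, beside 3.0% and 6.10%. Each comparison shares its libraries with others, so the 5 comparisons are not separate lines of evidence. None of the 4 vehicle calls held in every other setting tried: fitted on the 2 vehicle groups alone, or without control vehicle replicate 1, all 4 were lost.

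**Figure D3:**
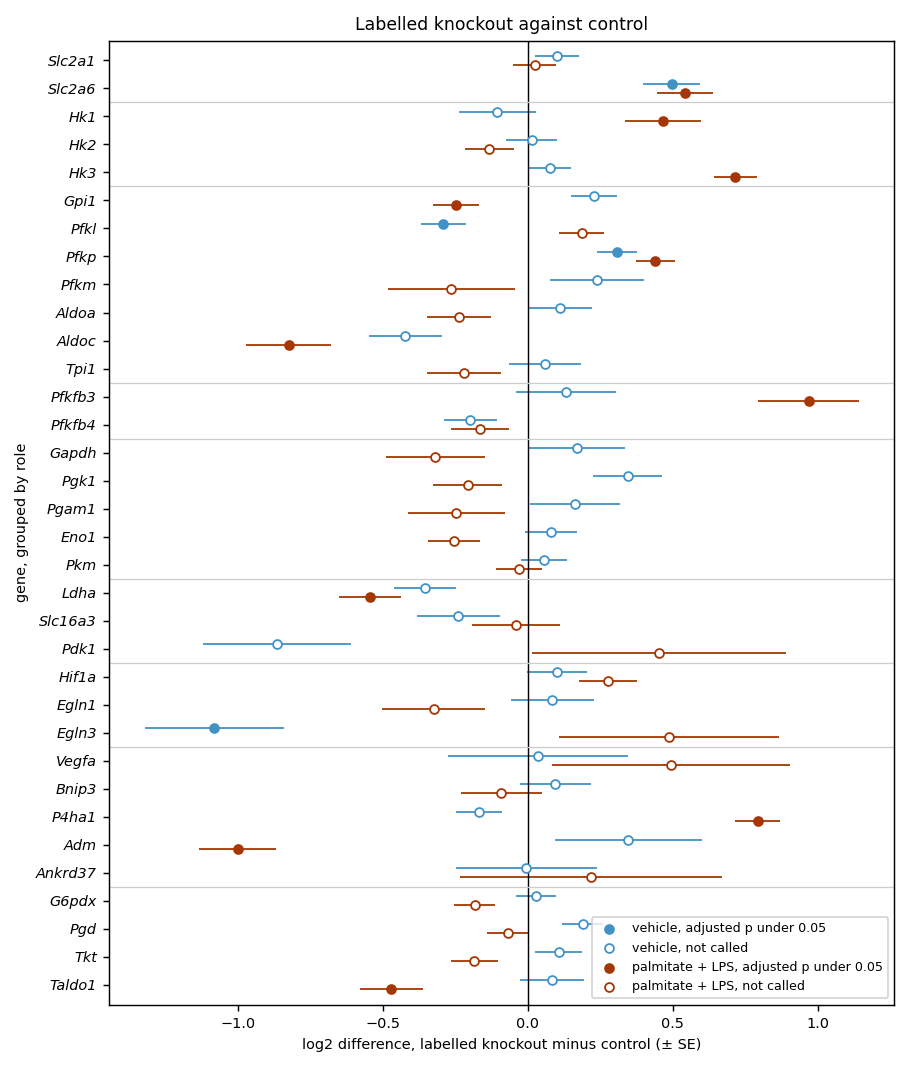
Log2 difference between libraries labelled knockout and controls (± SE, n = 3 per group) in vehicle (blue) and after palmitate plus LPS (brown) for the 34 genes in role order, filled where the edgeR adjusted p was under 0.05. Most vehicle points are open, and the filled brown points of Hk3, Pfkfb3 and P4ha1 lie to the right and those of Aldoc, Ldha and Adm to the left.

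Without the vehicle replicate 1 labelled knockout that stood apart, more genes passed, among the 34 and among all genes. In vehicle 3 were then higher and 4 lower, beside 3.28% and 2.72% of all genes. Pfkfb3 was added as higher (0.38, edgeR adjusted p = 0.00101), and Aldoc (-0.57, edgeR adjusted p = 0.000479) and Ldha (-0.48, edgeR adjusted p = 7.24e-05) as lower. After stimulation 8 were higher and 11 lower, beside 17.1% and 13.9%, with Hif1a and Pfkl added as higher and Aldoa, Eno1, G6pdx, Gapdh, Tkt and Tpi1 as lower. In the interaction 6 were higher and 3 lower, beside 7.74% and 5.59%, with Hk1 added (0.38, edgeR adjusted p = 0.00398). In controls the responses of Gapdh, Hk1 and Pfkfb3 were then called as rises and those of Aldoa, Ldha and Taldo1 as falls, with log2 values from -0.23 (Aldoa) to 0.25 (Gapdh). Of all genes 35.0% were then called higher and 37.6% lower in controls. The library left out is in neither control group, and the Gapdh value was also 0.25 in the main fit. With total-count scaling of all 12 libraries these 3 rises turned to -0.08 (Gapdh), -0.14 (Hk1) and -0.11 (Pfkfb3). The Egln3 response in libraries labelled knockout was no longer called (-0.51, edgeR adjusted p = 0.227).

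Both glucose transporters rose. Slc2a6 (ENSMUSG00000036067, chromosome 2, 27021363 to 27027998, minus strand), which encodes GLUT6, a member of the glucose transporter family found on internal membranes, stood at 22.7, 26.5 and 27.3 RPKM in control vehicle libraries and 40.5, 35.8 and 31.5 in those labelled knockout. After palmitate plus LPS the values were 459, 479 and 458 in controls and 664, 720.2 and 648 in libraries labelled knockout. No 2 of the 4 groups overlapped. The log2 response was 4.19 ± 0.11 in controls (edgeR adjusted p = 1.09e-14) and 4.24 ± 0.11 in libraries labelled knockout (edgeR adjusted p = 8.63e-15). The genotype difference was 0.50 ± 0.10 in vehicle (edgeR adjusted p = 0.00704), where it was lost with the 2 groups alone (adjusted p = 0.0931) and without control replicate 1 (0.0595), and 0.54 ± 0.10 after stimulation (edgeR adjusted p = 0.00112), where it was kept in all 19 other settings. The interaction was only 0.05 ± 0.14. Slc2a1, which encodes GLUT1, the main transporter of the plasma membrane, went from 29.9, 33.2 and 35.5 to 78.2, 78.1 and 80.4 RPKM in controls and from 36.04, 35.5 and 34.1 to 80.3, 79.4 and 80.98 in libraries labelled knockout. Treated and vehicle libraries did not overlap, with log2 responses of 1.26 ± 0.08 and 1.19 ± 0.08. After stimulation the groups of the 2 genotypes overlapped (0.02 ± 0.07). On this RPKM scale Slc2a6 thus stood below Slc2a1 in control vehicle libraries and far above it after stimulation. The order in vehicle depends on the length used and is uncertain. Exon lengths were 3211 bases for Slc2a6 and 2853 for Slc2a1, while the longest protein-coding transcripts have 2138 and 3260.

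Hexokinases phosphorylate glucose and trap it in the cell. Hk3 (ENSMUSG00000025877, chromosome 13, 55005985 to 55021385, minus strand), the form typical of myeloid cells, was by far the most abundant, at 196, 210.3 and 214 RPKM in control vehicle libraries and 201, 234 and 219.5 in those labelled knockout. With palmitate plus LPS it reached 332, 329 and 323 in controls and 541, 548 and 528 in libraries labelled knockout, with no overlap between these 2 groups or with vehicle. The response was 0.67 ± 0.07 in controls and 1.31 ± 0.07 in libraries labelled knockout, and the interaction of 0.64 ± 0.10 (edgeR adjusted p = 0.00242) was kept in all 18 other settings. The genotypes differed by 0.72 ± 0.07 after stimulation (edgeR adjusted p = 1.12e-05) and by 0.08 ± 0.07 in vehicle (edgeR adjusted p = 0.622), where their libraries overlapped. Hk2, the inducible form, went from 5.77, 6.48 and 5.80 to 20.8, 25.1 and 23.3 RPKM in controls and from 6.28, 6.02 and 5.94 to 22.2, 20.1 and 20.7 in libraries labelled knockout. Its responses of 1.94 ± 0.09 and 1.79 ± 0.09 gave an interaction that missed the threshold (-0.15 ± 0.12, edgeR adjusted p = 0.454), and the 2 treated groups overlapped. Hk1, the housekeeping form, stood at 12.1, 12.3 and 12.3 RPKM in control vehicle and 15.1, 13.6 and 13.1 in control stimulated libraries, a response that missed the threshold (0.19 ± 0.13, edgeR adjusted p = 0.227). In libraries labelled knockout it had 8.16, 13.3 and 12.6 RPKM in vehicle, replicate 1 being the lowest, and 18.7, 18.8 and 20.1 after stimulation. That response was 0.76 ± 0.13 (edgeR adjusted p = 0.000102), and with total-count scaling it was not called (adjusted p = 0.0547). Without vehicle replicate 1 it was 0.57 (edgeR adjusted p = 7.35e-09). The Hk1 genotype difference after stimulation (0.47 ± 0.13, edgeR adjusted p = 0.0258) was lost with total-count scaling (adjusted p = 0.122). It was also lost without stimulated control replicate 2 or 3, or without any 1 stimulated library labelled knockout (adjusted p from 0.0614 to 0.109).

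Upper glycolysis split between a rising Pfkp and falling partners. Phosphofructokinase commits sugar to glycolysis, and its platelet-type subunit gene Pfkp (ENSMUSG00000021196, chromosome 13, 6579768 to 6648777, minus strand) went from 16.8, 17.5 and 17.3 to 34.3, 34.98 and 34.9 RPKM in controls and from 20.6, 22.8 and 20.4 to 46.8, 47.95 and 46.5 in libraries labelled knockout. Every group lay apart from the others. The responses were 1.01 ± 0.07 and 1.15 ± 0.07, and the genotypes differed by 0.44 ± 0.07 after stimulation (edgeR adjusted p = 0.000411) and by 0.31 ± 0.07 in vehicle (edgeR adjusted p = 0.0175). The vehicle difference passed in 12 of 19 other settings and missed with the 2 groups alone (adjusted p = 0.175) and without any 1 control vehicle library or vehicle replicate 2 labelled knockout (0.0606 to 0.105). Pfkl, the liver-type subunit gene, moved the other way, from 24.4, 26.6 and 27.7 to 15.9, 14.9 and 15.2 RPKM in controls and from 20.5, 21.7 and 22.03 to 16.99, 16.7 and 18.6 in libraries labelled knockout. It fell by -0.77 ± 0.08 in controls and -0.30 ± 0.08 in libraries labelled knockout on the log2 scale, an interaction of 0.48 ± 0.11 (edgeR adjusted p = 0.0176). The vehicle groups lay apart, with the libraries labelled knockout lower by -0.29 ± 0.08 (edgeR adjusted p = 0.0471). That vehicle call held in 5 of 19 other settings. It was lost without any 1 control vehicle or stimulated library, and without vehicle replicate 2 labelled knockout (edgeR adjusted p from 0.051 to 0.184). The interaction held in 14 of 18 and was lost without control vehicle replicate 2, stimulated control replicate 2 or 3, or stimulated replicate 3 labelled knockout (0.0535 to 0.0609). Pfkm, the muscle-type subunit gene, was low throughout, at 2.06, 2.38 and 2.12 RPKM in control vehicle and 1.03, 0.949 and 0.613 in control stimulated libraries. It stood at 2.87, 2.57 and 2.33 and 0.657, 0.587 and 0.906 in libraries labelled knockout, and its responses of -1.34 ± 0.19 and -1.84 ± 0.19 were both called.

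Aldolase splits the sugar, and Tpi1 encodes the isomerase that interconverts its products. Tpi1 fell from 82.2, 87.5 and 99.6 to 30.2, 37.6 and 33.3 RPKM in controls and from 114, 84.4 and 81.7 to 31.7, 26.8 and 28.2 in libraries labelled knockout. The treated libraries were below every vehicle library, with log2 changes of -1.41 ± 0.13 and -1.69 ± 0.13. Aldoa, the main aldolase, changed by -0.23 ± 0.11 in controls (edgeR adjusted p = 0.0825) and -0.58 ± 0.11 in libraries labelled knockout (edgeR adjusted p = 0.000246), where vehicle replicate 1 stood at 1015 RPKM and the other 2 at 763 and 735. Without replicate 1 that response was -0.42 (edgeR adjusted p = 5.66e-06). Aldoc, the minor aldolase, went from 6.13, 6.87 and 6.87 to 3.58, 2.94 and 3.38 RPKM in controls. With the knockout label it went from 5.94, 4.70 and 4.23 to 1.89, 2.09 and 1.61, and these stimulated libraries lay below all others. The genotypes differed by -0.82 ± 0.15 after stimulation (edgeR adjusted p = 0.00122), a call kept in all 19 other settings, and by -0.42 ± 0.13 in vehicle (edgeR adjusted p = 0.0882), with no overlap. Gpi1, the isomerase between hexokinase and phosphofructokinase, stood at 32.1, 33.7 and 37.1 RPKM in control vehicle and 30.01, 29.2 and 29.6 in control stimulated libraries. Under the knockout label Gpi1 went from 43.4, 38.99 and 38.1 to 23.95, 26.5 and 24.3. It was the highest in the vehicle libraries labelled knockout and the lowest in their stimulated counterparts, and the groups lay apart. The genotype difference after stimulation (-0.25 ± 0.08, edgeR adjusted p = 0.0482) passed in 7 of 19 other settings and missed without any 1 stimulated library, control vehicle replicate 1 or 2, or vehicle replicate 2 labelled knockout. Its interaction (-0.47 ± 0.11, edgeR adjusted p = 0.0205) passed in 12 of 18 and missed without control vehicle replicate 1 or 2, stimulated control replicate 3, or stimulated replicate 1 or 3 labelled knockout. The response in controls, -0.21 ± 0.08 (edgeR adjusted p = 0.0292), passed in 12 of 19 and missed without control vehicle replicate 2 or 3 (edgeR adjusted p = 0.144 for the latter) or any 1 stimulated control.

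The PFKFB enzymes make and remove the sugar bisphosphate that activates phosphofructokinase, and Pfkfb3 encodes the form with the strongest net synthesis. Pfkfb3 (ENSMUSG00000026773, chromosome 2, 11471430 to 11502101, minus strand) stood at 5.32, 5.25 and 5.04 RPKM in control vehicle and 6.48, 5.76 and 5.92 in control stimulated libraries, a response of 0.22 ± 0.17 that missed the threshold (edgeR adjusted p = 0.282). In libraries labelled knockout it went from 3.51, 7.22 and 6.32 to 11.5, 11.5 and 12.5. The stimulated libraries labelled knockout were above every other library, and vehicle replicate 1 of that genotype was the lowest of all 12. The response there was 1.05 ± 0.17 (edgeR adjusted p = 5.28e-05) and the genotype difference after stimulation 0.97 ± 0.17 (edgeR adjusted p = 0.00128), both kept in all 19 other settings. The interaction of 0.84 ± 0.24 (edgeR adjusted p = 0.0472) was kept in 7 of 18 settings, with values from 0.59 to 1.05, and was lost without any 1 library of the control groups or of the stimulated libraries labelled knockout. Pfkfb4, the form that leans further to removal, fell in both genotypes, from 10.6, 10.8 and 10.2 to 3.87, 4.69 and 4.54 RPKM in controls and from 8.68, 9.56 and 9.37 to 3.87, 3.56 and 4.26 in libraries labelled knockout. Treated and vehicle libraries lay apart, and the responses were -1.27 ± 0.10 and -1.24 ± 0.10.

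**Figure D4:**
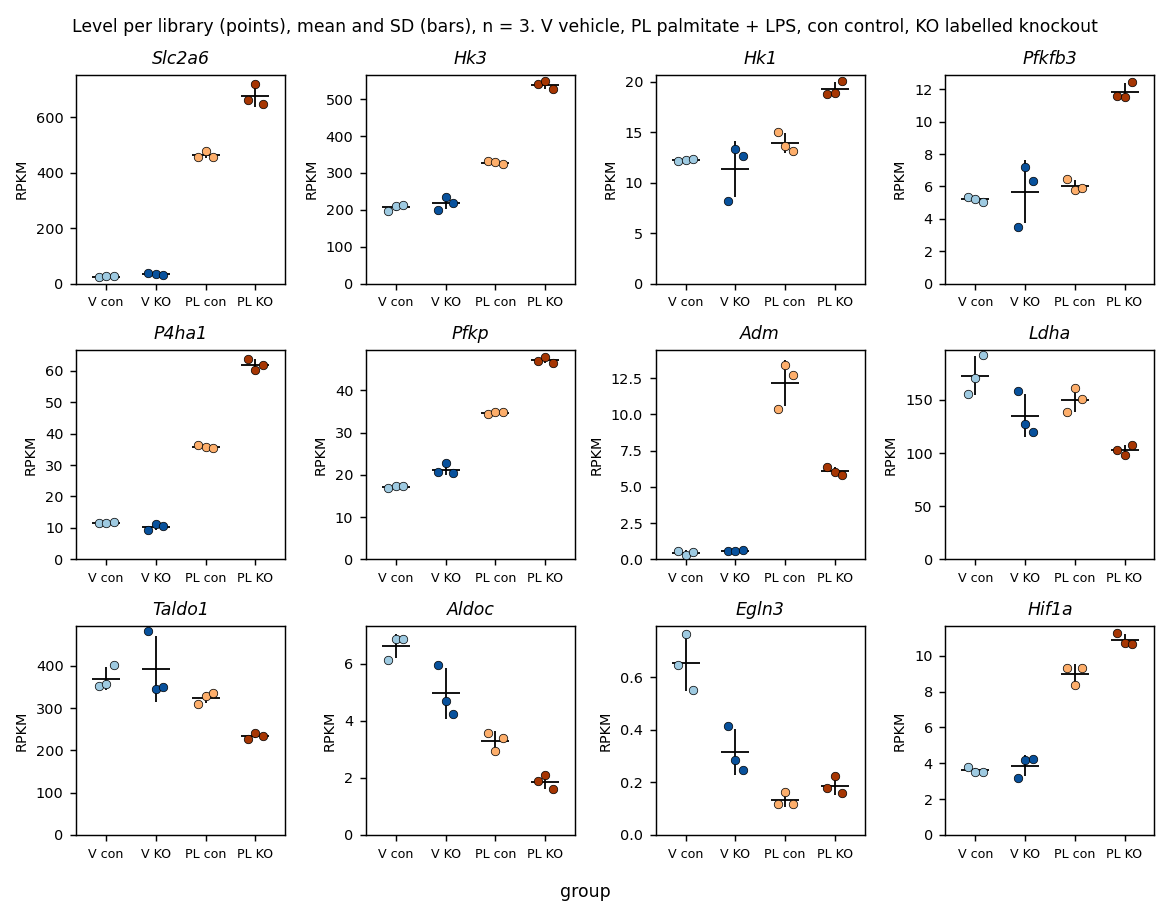
RPKM of 12 of the genes in each library (points) with the mean and SD of each group (n = 3). Hk3, Pfkfb3 and P4ha1 are highest in the stimulated libraries labelled knockout, Adm in the stimulated controls, and Egln3 in the control vehicle libraries.

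Lower glycolysis, from Gapdh to pyruvate kinase, gave calls with stimulation but none between genotypes, and its 5 genes are among those most affected by copies elsewhere in the genome. Pkm, encoding the pyruvate kinase of macrophages, fell from 469.9, 508 and 561 to 316, 343 and 342 RPKM in controls and from 568, 515 and 516 to 329.8, 319 and 331 in libraries labelled knockout, without overlap. The log2 changes were -0.62 ± 0.08 and -0.71 ± 0.08. Eno1, encoding enolase, stood at 33.7, 36.2 and 38.1 RPKM in control vehicle and 26.4, 29.95 and 27.8 in control stimulated libraries (-0.36 ± 0.09). The libraries labelled knockout went from 43.3, 35.7 and 35.1 to 23.7, 23.2 and 23.7 (-0.69 ± 0.09), and treated libraries again lay below vehicle. Pgk1, encoding phosphoglycerate kinase, rose in controls from 3.13, 3.82 and 3.31 to 4.67, 5.27 and 5.03 RPKM (0.54 ± 0.12, edgeR adjusted p = 0.000896), a call lost with total-count scaling (adjusted p = 0.104). In libraries labelled knockout its groups of 4.998, 4.24 and 3.84 and 4.22, 4.45 and 4.29 overlapped (-0.01 ± 0.12), and the interaction was -0.55 ± 0.17 (edgeR adjusted p = 0.057). Gapdh changed by 0.25 ± 0.17 and -0.24 ± 0.17 and Pgam1, encoding phosphoglycerate mutase, by 0.07 ± 0.16 and -0.34 ± 0.16, none of them past the threshold. No gene of this stretch passed the threshold between genotypes in either treatment. The nearest was Eno1 after stimulation (-0.25 ± 0.09, edgeR adjusted p = 0.0648).

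At the end of the pathway, Pdk1 and Slc16a3 fell in both genotypes and Ldha in libraries labelled knockout. Ldha (ENSMUSG00000063229, chromosome 7, 46841475 to 46855627, plus strand), encoding the lactate dehydrogenase subunit that turns pyruvate to lactate, stood at 156, 170.4 and 192 RPKM in control vehicle libraries and 158, 128 and 119 in those labelled knockout. After stimulation the values were 139, 161 and 151 and 103, 98.04 and 108. The stimulated libraries labelled knockout lay below all others. Genotypes differed by -0.54 ± 0.11 after stimulation (edgeR adjusted p = 0.00265), kept in all 19 other settings, and by -0.35 ± 0.11 in vehicle (edgeR adjusted p = 0.0875), where 1 library labelled knockout, replicate 1, overlapped the controls. The response was -0.39 ± 0.11 in libraries labelled knockout (edgeR adjusted p = 0.004) and -0.20 ± 0.11 in controls (edgeR adjusted p = 0.104), and the interaction of -0.19 ± 0.15 (edgeR adjusted p = 0.434) missed the threshold. Pdk1, encoding a kinase that shuts pyruvate dehydrogenase, fell steeply from 1.52, 1.79 and 1.68 to 0.223, 0.104 and 0.107 RPKM in controls. The other genotype went from 0.492, 0.885 and 1.33 to 0.227, 0.132 and 0.236, the vehicle libraries lying below those of the controls. It was the lowest response of the 34 genes in both genotypes, -3.51 ± 0.34 and -2.20 ± 0.33, with an interaction of 1.32 ± 0.51 (edgeR adjusted p = 0.118). The counts behind it were 316, 364 and 258 in control vehicle and 33, 15 and 16 in control stimulated libraries. Slc16a3, encoding the lactate exporter MCT4, went from 4.97, 4.61 and 5.07 to 3.43, 2.96 and 3.01 RPKM in controls (-0.64 ± 0.15). In libraries labelled knockout it went from 3.39, 3.51 and 5.47 to 2.93, 3.09 and 3.11 (-0.44 ± 0.15, edgeR adjusted p = 0.0153). That call was lost without vehicle replicate 3, at 5.47 RPKM (-0.18, edgeR adjusted p = 0.127), without stimulated replicate 1 (adjusted p = 0.0502) and with the 2 groups alone (0.0529).

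Hif1a rose while the hydroxylase genes Egln1 and Egln3 fell. Hif1a (ENSMUSG00000021109, chromosome 12, 73901375 to 73947530, plus strand) went from 3.78, 3.52 and 3.51 to 9.29, 8.38 and 9.30 RPKM in controls and from 3.18, 4.17 and 4.23 to 11.3, 10.7 and 10.7 in libraries labelled knockout. Treated libraries lay above vehicle, with log2 responses of 1.32 ± 0.10 and 1.49 ± 0.10. After stimulation the genotypes did not overlap, yet the difference missed the threshold (0.28 ± 0.10, edgeR adjusted p = 0.0701). Egln1, encoding the main oxygen sensor of this family, fell from 2.80, 2.90 and 2.64 to 0.914, 1.44 and 1.42 RPKM in controls and from 3.44, 2.64 and 2.80 to 1.04, 0.972 and 1.002 in libraries labelled knockout, by log2 changes of -1.15 ± 0.16 and -1.56 ± 0.16. Egln3 (ENSMUSG00000035105, chromosome 12, 54178981 to 54203860, minus strand), encoding the hydroxylase that is itself a HIF target, had few counts. It had 46, 53 and 29 counts (0.645, 0.762 and 0.550 RPKM) in control vehicle libraries and 21, 19 and 16 counts (0.413, 0.284 and 0.248 RPKM) in those labelled knockout. After stimulation the counts were 6, 8 and 6 and 8, 11 and 8. The vehicle groups lay apart and the stimulated groups, at 0.119, 0.162 and 0.117 and 0.177, 0.224 and 0.158 RPKM, overlapped. Egln3 was lower by -1.08 ± 0.24 in vehicle libraries labelled knockout (edgeR adjusted p = 0.0162), lost with the 2 groups alone (adjusted p = 0.0804), and when control replicate 1 or 2 or replicate 2 or 3 labelled knockout was left out (0.0553 to 0.110). Its response was -2.29 ± 0.29 in controls and -0.73 ± 0.31 in libraries labelled knockout (edgeR adjusted p = 0.0494), the latter called in 4 of 19 other settings and lost without any 1 control library, vehicle replicate 1 or 2 labelled knockout, or stimulated replicate 1 or 3 labelled knockout. The interaction of 1.57 ± 0.45 (edgeR adjusted p = 0.045) held in 6 of 17. It was lost without any 1 stimulated library, without control vehicle replicate 1 or 2, and without vehicle replicate 2 or 3 labelled knockout (adjusted p from 0.0534 to 0.122).

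The other HIF targets went in opposite directions. P4ha1 (ENSMUSG00000019916, chromosome 10, 59323296 to 59373304, plus strand), encoding the catalytic subunit of the prolyl hydroxylase that matures collagen, stood at 11.6, 11.5 and 11.8 RPKM in control vehicle libraries and 9.24, 11.1 and 10.7 in those labelled knockout. With palmitate plus LPS it reached 36.2, 35.7 and 35.3 in controls and 63.8, 60.1 and 61.8 in libraries labelled knockout. The last group lay far above the rest. The vehicle groups did not overlap either, yet their difference of -0.17 ± 0.08 missed the threshold (edgeR adjusted p = 0.311). The response was 1.62 ± 0.08 in controls and 2.58 ± 0.08 in libraries labelled knockout, and the interaction 0.96 ± 0.11 (edgeR adjusted p = 0.000148), from 0.88 to 1.02 over 18 other settings, all of which kept the call. The genotype difference after stimulation was 0.79 ± 0.08 (edgeR adjusted p = 5.88e-06). Fibroblasts, which make collagen, also express P4ha1, and fibroblast and mesothelial markers were measured in the same libraries: 6 of 10 passed the threshold as higher and 0 as lower, beside 10.0% and 6.10% of all genes. Their summed level was 90.7, 49.0 and 62.6 RPKM in stimulated libraries labelled knockout and 46.7, 42.6 and 43.9 in controls, with none of the 10 at 0, Col1a1 at 10.1 against 3.77, and Pdgfrb, not called, at 2.75 against 3.79. In vehicle the sums were 38.7, 41.3 and 36.3 against 30.6, 29.3 and 28.1, with 0 of 10 called by edgeR and 2 at an unadjusted p under 0.05. The part of those cells in the P4ha1 difference was not tested.

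Adm (ENSMUSG00000030790, chromosome 7, 110627661 to 110629820, plus strand), encoding the vasodilator peptide adrenomedullin, had the steepest rise of the 34 in controls and a smaller rise in libraries labelled knockout. It stood at 0.600, 0.307 and 0.499 RPKM in control vehicle libraries (26, 13 and 16 counts) and 0.583, 0.566 and 0.637 in those labelled knockout. After stimulation it reached 10.4, 13.4 and 12.7 in controls and 6.36, 6.06 and 5.84 in libraries labelled knockout. Vehicle genotypes overlapped, and every stimulated library labelled knockout lay below every stimulated control. The response was 4.69 ± 0.18 in controls (edgeR adjusted p = 1.62e-12) and 3.35 ± 0.18 in libraries labelled knockout (edgeR adjusted p = 1.19e-10), with an interaction of -1.35 ± 0.29 (edgeR adjusted p = 0.0116) kept in all 18 other settings. The genotype difference after stimulation was -1.0 ± 0.13 (edgeR adjusted p = 0.000113), kept in all 19. Ankrd37, an ankyrin repeat gene known as a sensitive HIF target, fell from 0.852, 1.17 and 0.864 to 0.150, 0.154 and 0.332 RPKM in controls and from 1.16, 0.880 and 0.882 to 0.168, 0.270 and 0.300 in libraries labelled knockout. Treated libraries lay below vehicle in both genotypes (-2.16 ± 0.34 and -1.94 ± 0.33), on 4, 4 and 9 counts in stimulated controls. Bnip3, encoding a protein of mitochondrial removal, went from 4.52, 4.63 and 4.46 to 2.37, 2.93 and 2.70 RPKM in controls (-0.77 ± 0.13) and from 5.53, 4.39 and 4.66 to 2.44, 2.20 and 2.85 in libraries labelled knockout (-0.95 ± 0.13). Vegfa, the blood vessel growth factor gene, was scarcely detected, at 0.339, 0.392 and 0.341 RPKM in control vehicle and 0.270, 0.0628 and 0.157 in control stimulated libraries. Libraries labelled knockout had 0.452, 0.325 and 0.336 and 0.274, 0.126 and 0.294. Its fall in controls (-1.12 ± 0.37, edgeR adjusted p = 0.0133) rested on stimulated replicate 2 and was lost without it (-0.75, adjusted p = 0.0673), and the change of -0.66 ± 0.35 in libraries labelled knockout was not called.

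In the pentose phosphate pathway Pgd rose and Tkt fell in both genotypes, and Taldo1 and G6pdx fell in libraries labelled knockout. Pgd, encoding phosphogluconate dehydrogenase, which yields NADPH, went from 94.1, 98.3 and 105 to 182, 189 and 191 RPKM in controls and from 118, 109 and 112 to 180.4, 182 and 172 in libraries labelled knockout, with treated libraries far above vehicle (0.92 ± 0.07 and 0.66 ± 0.07). G6pdx, encoding the enzyme that opens the pathway, changed by -0.05 ± 0.07 in controls (edgeR adjusted p = 0.58) and -0.26 ± 0.07 in libraries labelled knockout (edgeR adjusted p = 0.004). Tkt, encoding transketolase of the sugar-shuffling branch, went from 79.4, 84.5 and 89.9 to 65.3, 69.9 and 67.6 RPKM in controls (-0.32 ± 0.08) and from 102, 88.3 and 83.1 to 58.8, 60.1 and 59.6 in libraries labelled knockout (-0.61 ± 0.08). Taldo1 (ENSMUSG00000025503, chromosome 7, 141392199 to 141402968, plus strand), encoding transaldolase, stood at 352, 358 and 401 RPKM in control vehicle libraries and 482, 345 and 349.6 in those labelled knockout, where replicate 1 was the highest. After stimulation the values were 310.1, 328 and 336 and 228, 240.2 and 235, and the libraries labelled knockout lay below all others. The genotypes differed by -0.47 ± 0.11 (edgeR adjusted p = 0.0087), kept in all 19 other settings. The response was -0.74 ± 0.11 in libraries labelled knockout (edgeR adjusted p = 1.94e-05) and -0.19 ± 0.11 in controls (edgeR adjusted p = 0.141). The interaction of -0.55 ± 0.16 (edgeR adjusted p = 0.0406) held in 10 of 18 settings, from -0.64 to -0.38, and was lost without control vehicle replicate 1 or 2, stimulated control replicate 2 or 3, or any 1 stimulated library labelled knockout.

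The shares of isozymes within a step were compared as well, though with 3 libraries a group no share could pass 0.05. Pfkp made up 37.7% of the summed phosphofructokinase RPKM in control vehicle libraries and 46.9% in those labelled knockout, and 68.2% and 72.2% after stimulation. Pfkfb3 took 33.0% and 37.4% of the PFKFB pair in vehicle and 58.1% and 75.3% after stimulation. On counts alone, without exon length, Pfkp held 57.1% and 66.2% in vehicle and 82.35% and 84.9% after stimulation. Pfkfb3 then held 46.7% and 51.2%, and 71.1% and 84.4%. Which isozyme is the larger in vehicle can thus depend on the exon length used, while both shares were higher after stimulation either way. For Hk3 the share of hexokinase was high in all groups, at 91.9% and 92.6% in vehicle and 89.9% and 93.1% after stimulation. Aldoc held 0.85% and 0.589% of aldolase in vehicle and 0.498% and 0.331% after stimulation. Each of 4 shares was compared in 4 contrasts by a two-sided exact permutation test of 3 against 3 libraries, where the smallest p possible is 0.1. In 14 of the 16 the groups did not overlap and that smallest p was reached (0.114 after Benjamini-Hochberg adjustment). The exceptions were Hk3 with stimulation in libraries labelled knockout (exact p = 0.3) and Pfkfb3 between vehicle genotypes (exact p = 0.4), where replicate 1 labelled knockout, at 28.8%, had the lowest share of its group. The other 2 libraries of that group, at 43.0% and 40.3%, lay above the controls, at 32.7% to 33.4%.

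**Figure D5:**
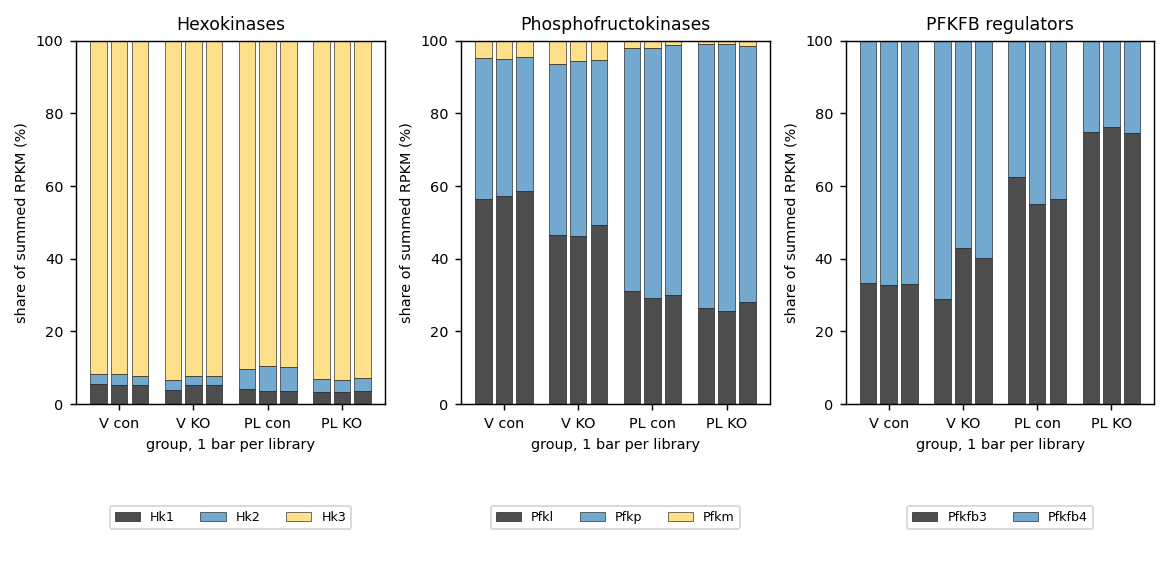
Share of each isozyme in the summed RPKM of its family, 1 bar per library and 3 libraries per group (V vehicle, PL palmitate plus LPS, con control, KO labelled knockout). The mean Pfkp share is 37.7% in control vehicle and 68.2% in control stimulated libraries and the Pfkfb3 share 33.0% and 58.1%, while that of Hk3 lies between 89.9% and 93.1%.

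Genes around these pathways were followed on lists chosen with the 34. Of 23 other measured genes of glucose handling and glycolysis, 6 rose and 13 fell in controls and likewise 6 and 13 in libraries labelled knockout, where 32.0% and 34.7% of all genes did so in controls and 33.7% and 35.6% in libraries labelled knockout. Gpd2, the mitochondrial glycerol phosphate dehydrogenase, rose by 2.12 ± 0.07 and 2.0 ± 0.07, while Pdk2, a sister kinase of Pdk1, changed by -2.40 ± 0.14 and -3.31 ± 0.16 and the monocarboxylate transporter gene Slc16a7 by -2.13 ± 0.12 and -2.39 ± 0.13. After stimulation 2 were higher and 3 lower in libraries labelled knockout, beside 10.0% and 6.10% of all genes. Minpp1, an inositol phosphate phosphatase gene, was higher by 0.74 ± 0.11 (edgeR adjusted p = 0.000217, interaction 0.89 ± 0.16), the enolase gene Eno2 higher by 0.39 ± 0.09, and Pdk2 lower by -0.96 ± 0.20 (edgeR adjusted p = 0.00355). Of 8 other pentose phosphate and ribose genes, 2 rose and 2 fell in controls and 1 rose and 3 fell in libraries labelled knockout. Rpe, encoding the epimerase of the pathway, rose by 0.61 ± 0.08 and 1.16 ± 0.08 with an interaction of 0.54 ± 0.11 (edgeR adjusted p = 0.0107), and Prps2 changed by -1.13 ± 0.12 and -0.85 ± 0.12. H6pd, the microsomal counterpart of G6pdx, was the gene of this list higher in vehicle libraries labelled knockout (0.56 ± 0.14, edgeR adjusted p = 0.0407).

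Of 27 other measured HIF regulators and hypoxia targets, 10 rose and 9 fell in controls and 9 and 10 in libraries labelled knockout, shares near those of all genes given above. Epas1, encoding HIF2α, changed by -3.99 ± 0.26 and -3.16 ± 0.25, Zfp395 by -4.07 ± 0.27 and -4.06 ± 0.29, and Mxi1, an antagonist of MYC, by -2.47 ± 0.15 and -2.82 ± 0.16. Between genotypes 0 were higher and 2 lower in vehicle, beside 2.11% and 1.69% of all genes. The 2 were the transferrin receptor gene Tfrc (-0.98 ± 0.15, edgeR adjusted p = 0.00124) and Epas1 (-0.89 ± 0.22, edgeR adjusted p = 0.0365). After stimulation 3 were higher and 3 lower, beside 10.0% and 6.10% of all genes. The carbonic anhydrase gene Car12 was higher by 2.52 ± 0.50 (edgeR adjusted p = 0.0028), Rora lower by -0.48 ± 0.11 (edgeR adjusted p = 0.00764) and Ndrg1 higher by 0.46 ± 0.11 (edgeR adjusted p = 0.00814). In the interaction 1 was higher, Car12 (3.24 ± 0.91), and 2 lower, Rora (-0.63 ± 0.15) and the heme oxygenase gene Hmox1 (-0.53 ± 0.14). These stand beside 4.70% and 3.35% of all genes.

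Other marker lists and RNA measures stood as follows in the same libraries, and their part in the differences above was not tested. Neutrophil markers summed to 57.5 to 69.6 RPKM in stimulated controls and 56.1 to 65.4 in stimulated libraries labelled knockout, with Ly6g at 0 in all groups. Of the 3 of 7 that passed the filter, Csf3r (25.1 against 37.8 RPKM) and Mmp8 (1.93 against 4.41) were higher in stimulated libraries labelled knockout and S100a8 (38.2 against 17.7) lower. T and NK cell, erythroid, B cell and eosinophil markers summed to at most 4.005 RPKM in any library, and mast cell markers to at most 4.81. Of 4 platelet and megakaryocyte markers 1 passed the filter, and they summed to 97.9 to 191.9 RPKM. Nearly all of that sum was Pf4, at mean levels of 105.5 in control vehicle libraries and 135.8 in those labelled knockout. After stimulation Pf4 stood at 113.9 and 104.0. Ppbp, Itga2b and Gp9 had group means of at most 0.0618. Of 7 macrophage markers 3 were higher and 1 lower in stimulated libraries labelled knockout. Ribosomal protein genes took 0.571% of the counts of vehicle replicate 1 labelled knockout and 0.417% to 0.441% of those of the other vehicle libraries. After stimulation they took 0.430% to 0.452% in controls and 0.383% to 0.403% in libraries labelled knockout, without overlap, and 0 of 20 were called higher and 1 lower. Mitochondrially encoded genes took 0.549% to 0.821% in vehicle. After stimulation they took 0.405% to 0.456% in controls and 0.318% to 0.335% in libraries labelled knockout, also without overlap, and of 6 tested 0 were called higher and 1 lower, with a median log2 difference of -0.31. The ribosomal and mitochondrial calls stand beside the same 10.0% and 6.10% of all genes.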

How the data were processed

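Bulk RNA-seq libraries (SMARTer v1 kit, per the labels' protocols) were processed by the authors with bcl2fastq 2.0, STAR 2.0.4b and featureCounts 1.45 on GRCm38, per the submitters' processing notes. Their options, annotation release, read length and strandedness were not given in the sources used here. The authors' deposited tables gave a raw count, CPM (count relative to total library size) and RPKM (CPM per kilobase of exon) for 41388 genes. Genes were matched by Ensembl ID, and 40254 IDs had a symbol in a table of gene names. Only the deposited counts were used, and RPKM was recomputed on TMM library sizes.

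Tests used edgeR 4.0.16 (R 4.3.3): filterByExpr by group kept 12914 genes with at least 99.9% of each library's counts, and a quasi-likelihood model with 1 mean per group was fitted to all 12 libraries. Standard errors are the log2 change divided by the root of F. The threshold was a Benjamini-Hochberg adjusted p of 0.05 over all genes of a comparison. The model was tested on simulated data with known changes in the vehicle genotype comparison only. That run did not cover the other comparisons, and its outcome is not quoted here. Alternatives were DESeq2 size factors, total-count scaling, no filter, DESeq2 1.42.0, limma-voom (limma 3.58.1), a replicate block, the 2 groups alone, and leaving out each of the 12 libraries. Isozyme shares were compared by exact permutation tests (scipy 1.17.1).

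The genes and lists were chosen with earlier results of these data known. All 34 genes were named. Values per library were given for up to 12 genes called between genotypes or in the interaction, smallest p first, and for up to 2 highest and 2 lowest responses called in each role. A 13th called gene, also named by its response, was given in the same way. Of each other pathway list, at most the 3 smallest p-values per comparison were named. One gene of these lists is not reported here. Of the marker lists, sums and defining genes were given.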

Additional observations from a re-analysis of the deposited data

Results flagged for a closer look

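The response to palmitate plus LPS differed between genotypes for 8 of the 34 genes by the interaction term (edgeR adjusted p under 0.05), each difference being the log2 response in libraries labelled knockout minus that in controls. Of all genes 4.70% were called higher and 3.35% lower in this term. P4ha1 (0.96, edgeR adjusted p = 0.000148) and Hk3 (0.64, edgeR adjusted p = 0.00242) rose further in libraries labelled knockout, and Adm (-1.35, edgeR adjusted p = 0.0116) rose less. These 3 were kept in all 18 other settings. Pfkfb3 (0.84, edgeR adjusted p = 0.0472) rose in libraries labelled knockout and was not called in controls, and Pfkl (0.48, edgeR adjusted p = 0.0176) and Egln3 (1.57, edgeR adjusted p = 0.045) fell less. Taldo1 (-0.55, edgeR adjusted p = 0.0406) and Gpi1 (-0.47, edgeR adjusted p = 0.0205) were lower in the libraries labelled knockout after stimulation. Gpi1 fell further there, and Taldo1 fell there and was not called in controls. The last 5 were each lost in at least 1 other setting. Vehicle replicate 1 labelled knockout entered each of these terms. Without it 6 genes were higher and 3 lower, beside 7.74% and 5.59% of all genes.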

How the results depend on the processing

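Of the called changes, 23 of 26 responses in controls, 27 of 30 in libraries labelled knockout, 9 of 11 genotype differences after stimulation, 3 of 8 interactions and 0 of 4 vehicle differences held in every other setting, and none turned direction. In the vehicle comparison (2 higher and 2 lower), total-count scaling gave 1 and 4, DESeq2 size factors 2 and 1, no filter 2 and 4, and the 2 groups alone 0 and 0. Leaving out 1 library gave 0 to 3 higher and 0 to 4 lower, beside 0.984% to 3.28% and 0.960% to 2.72% of all genes. After stimulation (6 higher, 5 lower), total-count scaling gave 10 lower and the 2 groups alone 11 lower, and leaving out 1 library 4 to 11. The share of all genes called lower moved as well. It was 6.10% in the main fit, 12.2% with total-count scaling, 14.5% with the 2 groups alone and 3.18% to 13.9% on leaving out 1 library. In the interaction (5 higher, 3 lower), total-count scaling gave 8 lower and the DESeq2 test 5 lower, and leaving out 1 library 2 to 7 higher and 1 to 6 lower. Of all genes 4.70% were higher and 3.35% lower in the main fit. Total-count scaling gave 6.10% of all genes lower and the DESeq2 test 4.97%. Leaving out 1 library gave 2.10% to 7.79% of all genes higher and 1.16% to 7.15% lower. The cause of these shifts was not tested.

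Replicate numbers did not pair the libraries: same-numbered libraries correlated from -0.27 to 0.05 in their deviations from group means. With the replicate block, 1 gene was higher and 1 lower in vehicle, beside 1.53% and 1.18% of all genes. In the interaction 3 were higher and 1 lower with it, beside 2.56% and 1.42%. Vegfa, Egln3, Ankrd37 and Pdk1 rest on few counts, which limits their precision.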
